A study of Homo sapiens with 6 samples.

Results

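The experiment asked what changes in the RNA of leukemia cells when DNA binding by the C/EBP family is blocked. KO52, an established human acute myeloid leukemia line whose CEBPA alleles both carry mutations, was transduced with a doxycycline-inducible lentiviral vector. The vector carried a dominant negative C/EBP peptide (dnCEBP) or no peptide (empty vector, EV), and the other group carried a dominant negative FOS peptide (dnFOS). The comparison took the 2 libraries titled dnCEBP and the 2 titled EV, which are 4 of the 6 libraries in the series. All groups shared the KO52 background and, by the study's account, exposure to doxycycline and sorting for the GFP marker of the vector. The labels do not say whether the 2 libraries of a group came from separate cultures or transductions, so the p-values measure the spread between these libraries, which may be technical. The cells are 1 cell line, and the level of the induced peptide was not measured by these counts.

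C/EBP proteins are basic leucine zipper transcription factors that bind DNA as dimers. C/EBPα drives granulocytic commitment, in which genes of the primary granules and the receptor for granulocyte colony-stimulating factor are switched on. In CEBPA double mutant leukemia, a truncated isoform and a form with an altered zipper take the place of the normal protein. The dominant negative peptide keeps the zipper but not a functional DNA contact, so that dimers of the peptide with family members no longer bind.

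Total counts per library were 27663179 and 21681121 in dnCEBP, 24479677 and 22056069 in EV, and 14583615 and 9862994 in dnFOS. The mitochondrial share of counts lay between 24.6% and 25.7% in all 6 libraries. Replicate counts varied beyond what sampling alone gives, so no library was a copy of another. Levels below are CPM, a gene's counts scaled to a common library size, on TMM-scaled library sizes. Differences are log2 fold changes, dnCEBP minus EV, with the standard error (SE) from the fit. A gene was called where its adjusted p was under 0.05 in edgeR's quasi-likelihood test, two-sided, with Benjamini-Hochberg adjustment over 15395 genes. "Rose" and "fell" are used of called genes alone.

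Few genes differed between dnCEBP and EV, most of them modestly. Of 15395 genes tested, 165 (1.07%) were called, 96 higher (0.624%) and 69 lower (0.448%) in dnCEBP than in EV. The median absolute log2 fold change of the 165 was 0.55, and 29 genes (0.188%) also passed a 2-fold change. An unadjusted p under 0.05 was reached by 1835 genes. In all 165 called genes, the dnCEBP and EV libraries did not overlap. Over all genes, dnCEBP lay wholly above EV in 21.9% and wholly below it in 20.9%.

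The number called depended on single libraries. Leaving out dnCEBP replicate 1 gave 257 calls, which included 120 of the 165. Leaving out dnCEBP replicate 2 gave 33, with 31 of the 165. Without EV replicate 1 there were 81, with 64 of the 165, and without EV replicate 2 there were 53, with 50 of the 165. Each of the 165 kept its direction in these 4 fits. Because their groups did not overlap, leaving out 1 library could hardly reverse a direction, so this is no sign of stability. Of the 73 called genes that the naming rule took up, 23 kept their call in all 4, and these are described below as holding without any 1 library.

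Another test and another scaling changed fewer calls. DESeq2 called 142 genes, 137 of them among the 165, and of the named genes it did not call CTSG, CCDC78, PRAM1, C16orf74, GAR1, CIITA, FNDC3B, PHGDH, TNF, DNM3 and MYO7A. Scaling by library totals alone called 127, all among the 165. The named genes lost were then PRAM1, C16orf74, GAR1, CIITA, TNF, DNM3, MYO7A, B3GNT2, BCL2L1, HSPA1A and HSPA1B.

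Genes that rose and genes that fell differed in base composition. The median GC content of the annotated exons was 41.8% for genes called higher, 53.4% for genes called lower and 47.7% over all genes tested. A fit from which each library's trend with GC content and length had been removed called 262 genes and kept 148 of the 165.

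**Figure D1:**
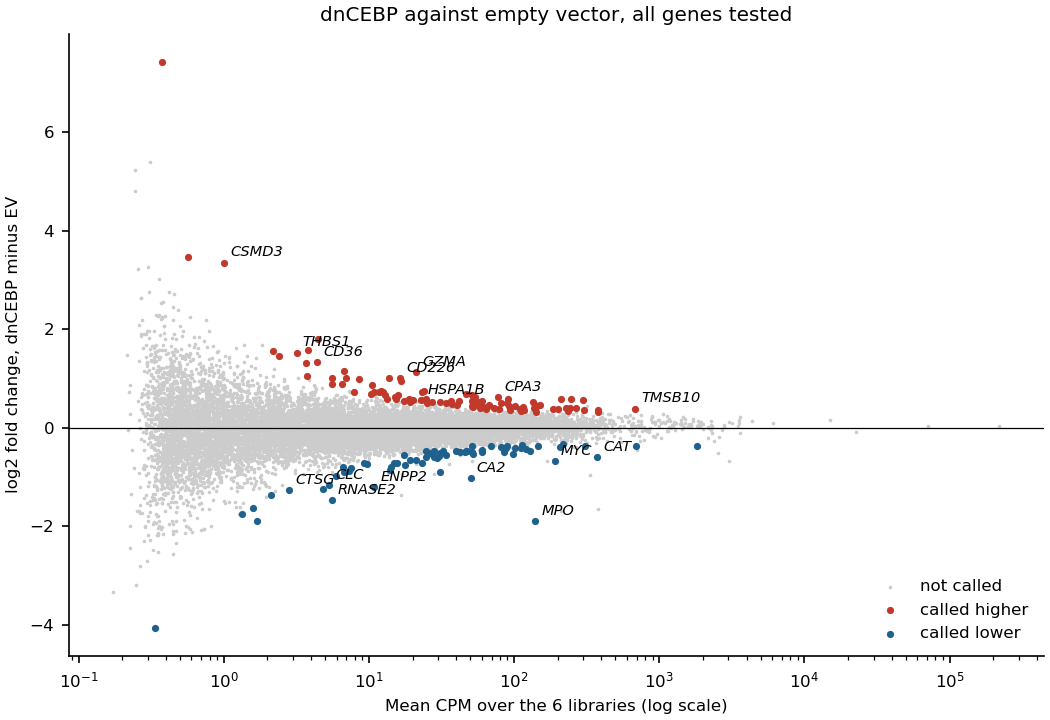
Each point is 1 of 15395 genes, with its mean CPM over the 6 libraries on the x axis (log scale) and its log2 fold change, dnCEBP minus EV, on the y axis. Red and blue points are the 96 genes called higher and the 69 called lower. MPO lies at -1.89, and most called genes lie within 1 log2 unit of 0.

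**Figure D2:**
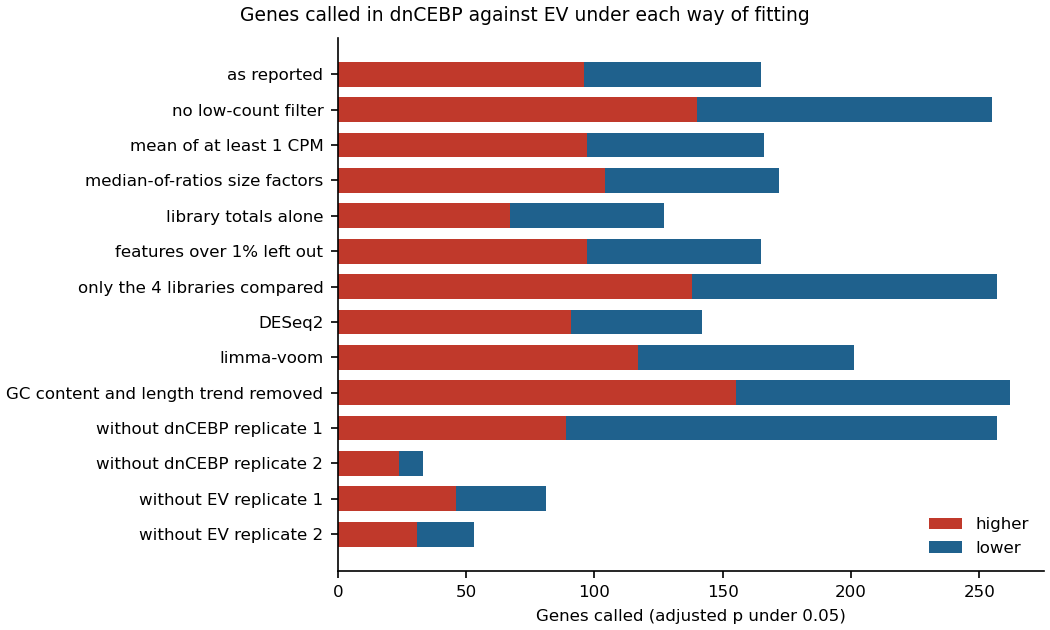
Bars give the number of genes with an adjusted p under 0.05, dnCEBP against EV, for the reported fit and for alternatives without a replicate block, split into higher (red) and lower (blue). The count was 165 as reported and, among the fits plotted, ranged from 33 without dnCEBP replicate 2 to 262 with the GC and length trend removed.

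The genes of the C/EBP family themselves were first compared, since the peptide acts on their proteins. All 6 were tested and none was called in the reported fit. CEBPA, the mutated gene of this leukemia, stood at 393 and 382 CPM in EV and 389 and 345 CPM in dnCEBP, so that the groups overlapped (log2 fold change -0.08, SE 0.08, adjusted p = 0.787, edgeR). This value moved to 0.15 when the GC and length trend was removed and to 0.01 without dnCEBP replicate 2. Reads from an expressed peptide could in part be counted within a C/EBP gene, and this was not tested.

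The other 5 members also had values below 0. CEBPB, which acts in inflammatory and emergency granulopoiesis, stood at 8.89 and 10.1 CPM in EV and 7.03 and 8.59 CPM in dnCEBP (log2 fold change -0.29, adjusted p = 0.581). CEBPG, a partner without an activation domain, stood at 53.6 and 47.7 CPM against 41.7 and 40.0 CPM (-0.31, adjusted p = 0.174), and was called lower once the GC and length trend was removed (-0.34, adjusted p = 0.0446, edgeR). CEBPE, which drives late granulocyte maturation, stood at 4.41 and 3.89 CPM against 3.07 and 2.08 CPM (-0.67, adjusted p = 0.320). In each of these 3 genes both dnCEBP libraries were below both EV libraries, which was also so in 20.9% of all genes. CEBPD had at most 0.545 CPM in any of the 4 libraries, and DDIT3, the stress-induced member, overlapped between groups (-0.17, adjusted p = 0.561).

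Genes of the azurophil granule, the primary granule formed at the promyelocyte stage, fell or had values below 0, except SERPINB1. Of 17 listed, 12 were tested, 3 were called lower (25% of those tested, against 0.448% of all genes) and 11 had a fold change below 0. The median log2 fold change of the 12 was -1.26, and -0.002 over all genes tested. The median ranged from -1.37 to -0.98 over the fits without 1 library. In 9 of the 12 both dnCEBP libraries were below both EV libraries, against 20.9% of all genes. The list includes RNASE2 and RNASE3, which encode proteins of eosinophil granules, so these counts are not of neutrophil granule genes alone.

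MPO, the myeloperoxidase that makes hypochlorous acid from peroxide and lies on chromosome 17 from 58269856 to 58280935 (GRCh38), was at 239 and 194 CPM in EV and at 63.5 and 53 CPM in dnCEBP. The lower EV library was well above the higher dnCEBP library. MPO had the smallest adjusted p of the comparison, with a log2 fold change of -1.89 (SE 0.10, adjusted p = 5.03e-13), and held without any 1 library. In dnFOS it was at 153 and 140 CPM, and the direct contrast, dnCEBP minus dnFOS, was -1.33 (adjusted p = 2.1e-10, edgeR). Over the azurophil list genes tested, the median of dnFOS minus EV was -0.72, so the list lay below EV with that peptide too.

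RNASE2, the eosinophil-derived neurotoxin, was at 10.9 and 7.0 CPM in EV and at 4.22 and 2.12 CPM in dnCEBP (-1.47, SE 0.27, adjusted p = 0.00468). CTSG, cathepsin G, a serine protease of the granule, was at 5.08 and 3.80 CPM against 1.48 and 2.27 CPM (-1.26, SE 0.30, adjusted p = 0.0248). Neither gene's groups overlapped, but both calls were lost without dnCEBP replicate 2 and without EV replicate 1, and that of CTSG also without dnCEBP replicate 1. AZU1, azurocidin, was at 1.43 and 1.88 CPM in EV and 0.444 and 0.338 CPM in dnCEBP and missed the threshold (-2.05, adjusted p = 0.0800). RNASE3, whose sequence is close to that of RNASE2 so that reads may be shared, was at 1.80 and 1.74 CPM against 0.333 and 0.531 CPM (-2.04, adjusted p = 0.0788). Other abundant granule genes, unlike MPO, differed little. SERPINB1 lay the other way, at 285 and 280 CPM in EV and 299 and 316 CPM in dnCEBP (0.12, adjusted p = 0.612). SRGN overlapped, at 246 and 236 CPM against 225 and 243 CPM (-0.05, adjusted p = 0.890). CST7, the protease inhibitor cystatin F, was at 159 and 145 CPM against 130 and 113 CPM (-0.32, adjusted p = 0.0802), and LYZ, lysozyme, at 78.5 and 76.1 CPM against 64.9 and 74.3 CPM (-0.15, adjusted p = 0.557). ELANE had at most 9 counts in any of the 4 libraries and was not tested. In bulk RNA, fewer cells of a type and less RNA per cell cannot be told apart.

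Specific and gelatinase granule genes, which come on later in maturation, were mostly silent in this line. Only 4 of 18 were tested, and none was called. Of these, TCN1, a vitamin B12 carrier, was the most abundant, at 57.5 and 55.8 CPM in EV and 54.8 and 63.4 CPM in dnCEBP (0.06, adjusted p = 0.884). The NADPH oxidase genes gave 0 calls among 7 tested, of which 4 had values above 0 and 3 below.

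CSF3R, the receptor for granulocyte colony-stimulating factor, fell from 92.1 and 83.4 CPM in EV to 65.6 and 58.6 CPM in dnCEBP. The groups did not overlap, and the log2 fold change was -0.50 (SE 0.09, adjusted p = 0.00421). The call was lost without dnCEBP replicate 2 and without EV replicate 1. CSF3R was the 1 member called among 14 hematopoietic growth factor receptors tested (7.14%, against 1.07% of all genes). Of the 14, 11 had values below 0, and the median was -0.23. Among the others, CSF2RA, the alpha chain of the GM-CSF receptor, stood at 21.6 and 16.5 CPM against 12.6 and 15.5 CPM (-0.45, adjusted p = 0.184). IL6R, the interleukin 6 receptor, stood at 13.6 and 11.9 CPM against 9.29 and 9.32 CPM (-0.46, adjusted p = 0.213).

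Promoters were searched for the bases that C/EBP dimers prefer. The set of RefSeq promoters used here (GRCh38.p14, 250 bases before to 50 after the start) covered 10180 of the 15395 genes. Of the 165 called genes, it covered 119. The motif TTGCNNAA, on either strand, was present in 9 of 49 promoters of genes called lower (18.4%), 5 of 70 of genes called higher (7.14%) and 708 of all 10180 (6.95%). The full dyad TTGCGCAA was in none of the 119 and in 21 of all (0.206%). The composite C/EBP with AP-1 motif TGANGCAA was in 0 of 49, 1 of 70 (1.43%) and 2.51% of all. The AP-1 motif TGANTCA was in 2.04%, 8.57% and 4.36%, and the RUNX motif TGTGGT in 8.16%, 14.3% and 9.74%, in the same order. These shares are descriptions, and a match is not evidence of binding.

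This set held no promoter for MPO. Stretches upstream of the start are shown for 3 genes that fell (RNASE2, CSF3R and RAB7B) and for CPA3, a gene that rose and held 3 copies, with every TTGCNNAA match in capitals on the strand of the gene. They lie at chr14:20955292-20955379 (plus strand), chr1:36483483-36483564 (minus), chr1:206003428-206003515 (minus) and chr3:148865046-148865248 (plus), and the first match begins 145, 206, 70 and 236 bases before the start.
RNASE2: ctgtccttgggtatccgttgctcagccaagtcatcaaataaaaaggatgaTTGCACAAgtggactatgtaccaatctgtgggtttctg
CSF3R: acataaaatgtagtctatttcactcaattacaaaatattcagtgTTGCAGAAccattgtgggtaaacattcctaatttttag
RAB7B: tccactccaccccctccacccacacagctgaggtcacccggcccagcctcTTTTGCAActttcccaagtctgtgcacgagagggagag
CPA3: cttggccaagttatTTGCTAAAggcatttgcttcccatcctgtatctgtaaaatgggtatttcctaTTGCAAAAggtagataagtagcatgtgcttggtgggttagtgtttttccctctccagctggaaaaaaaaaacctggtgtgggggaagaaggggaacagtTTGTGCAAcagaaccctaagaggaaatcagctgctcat

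RAB7B, a small GTPase of late endosomes, was at 3.06 and 1.74 CPM in EV and 0.666 and 0.628 CPM in dnCEBP (-1.88, SE 0.41, adjusted p = 0.0157), a low level at which the call was lost in 3 of the 4 fits without 1 library. Other genes that fell past 2-fold were MMP2, gelatinase A, at 6.80 and 5.31 CPM against 2.41 and 2.75 CPM (-1.24, adjusted p = 0.00626), PRAM1, an adaptor of myeloid cells (-1.62, adjusted p = 0.0488), CCDC78 (-1.76, adjusted p = 0.0329) and C16orf74 (-1.36, adjusted p = 0.0465). Of these 5, MMP2 was the most abundant and none held in every fit without 1 library.

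ENPP2, autotaxin, the secreted enzyme that makes lysophosphatidic acid, fell from 16.2 and 18.3 CPM in EV to 7.47 and 7.53 CPM in dnCEBP. The groups were well apart, with a log2 fold change of -1.20 (SE 0.17, adjusted p = 0.000152). CA2, carbonic anhydrase II, fell from 55.1 and 58.6 CPM to 26.7 and 29.6 CPM (-1.02, SE 0.10, adjusted p = 5.57e-07). CAT, catalase, which breaks down hydrogen peroxide, fell from 451 and 418 CPM to 276 and 297 CPM (-0.60, SE 0.08, adjusted p = 0.000152). STAR, the mitochondrial cholesterol carrier, was at 18.8 and 17.0 CPM against 10.5 and 9.17 CPM (-0.86, adjusted p = 0.00308). The calls of ENPP2, CA2 and CAT held without any 1 library, and that of STAR was lost without dnCEBP replicate 2.

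Among 23 myeloid and progenitor transcription factors tested, 2 fell and 1 rose (13.0% called, against 1.07% of all genes), and the median was 0.004. MYC, the growth-promoting factor, fell from 233 and 215 CPM to 149 and 130 CPM (-0.68, SE 0.09, adjusted p = 4.76e-05), a call that held without any 1 library. GFI1, a repressor needed for neutrophil differentiation, fell from 53.4 and 51.0 CPM to 35.7 and 38.3 CPM (-0.50, SE 0.10, adjusted p = 0.00926). Its paralog GFI1B, which acts in erythroid and megakaryocytic cells, rose from 21.3 and 22.9 CPM to 34.7 and 30.4 CPM (0.56, SE 0.13, adjusted p = 0.0196). The groups did not overlap in any of the 3 genes, but the calls of GFI1 and GFI1B were lost in each of the 4 fits without 1 library. SPI1, which encodes PU.1, was at 27.0 and 22.8 CPM in EV and 19.0 and 11.6 CPM in dnCEBP and was not called (-0.69, SE 0.18, adjusted p = 0.0671).

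**Figure D3:**
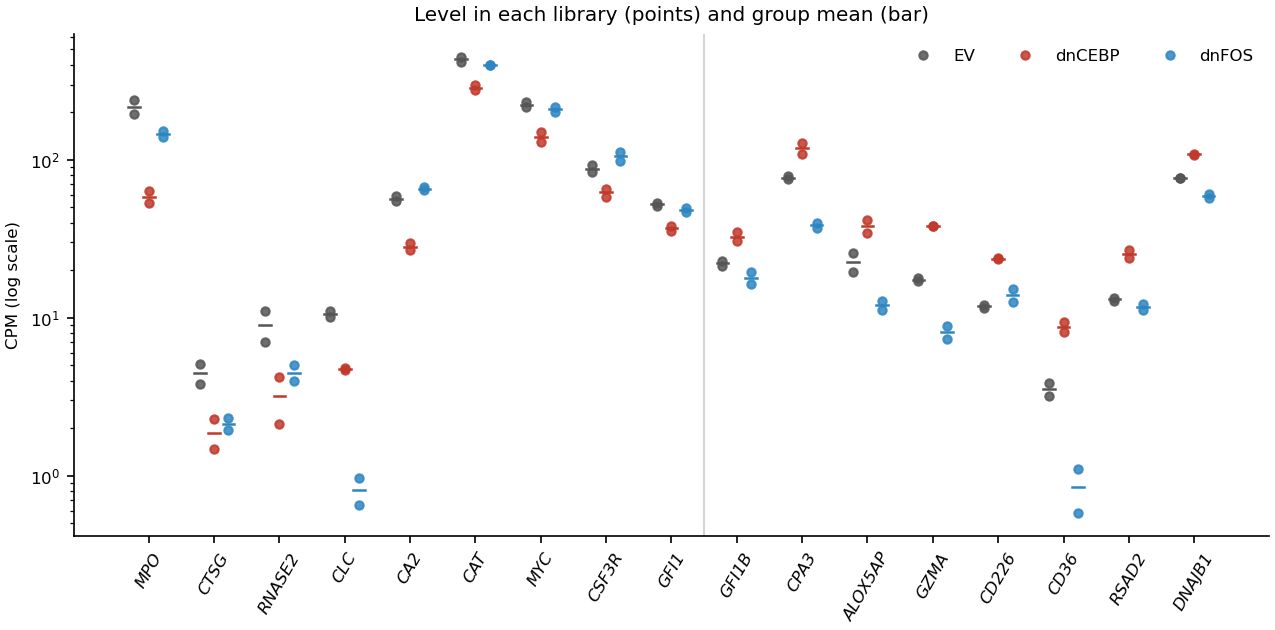
Points give the level of 17 called genes in each library, in CPM on a log scale, for EV (grey), dnCEBP (red) and dnFOS (blue), and bars give the mean of 2 libraries. The 9 genes left of the vertical line fell and the 8 right of it rose in dnCEBP against EV, with no overlap between those groups in any of them.

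Genes of eosinophils, basophils and mast cells moved in both directions. Of 15 listed, 11 were tested, of which 2 rose and 1 fell (27.3% called, against 1.07% of all genes), with a median of 0.21. RNASE2 and RNASE3, eosinophil granule genes with values below 0, were counted in the azurophil list and not here. CPA3, the mast cell carboxypeptidase, rose from 78.5 and 75.4 CPM in EV to 109 and 129 CPM in dnCEBP (0.63, SE 0.09, adjusted p = 0.000163) and held without any 1 library. HPGDS, the hematopoietic prostaglandin D synthase, rose from 201 and 192 CPM to 245 and 267 CPM (0.38, SE 0.08, adjusted p = 0.0153), a call lost in 3 of the 4 fits, those without dnCEBP replicate 2 and without either EV library. CLC, galectin-10 of the Charcot-Leyden crystal, fell from 10.9 and 10.1 CPM to 4.77 and 4.63 CPM (-1.16, SE 0.20, adjusted p = 0.00183) and held without any 1 library. HDC, which makes histamine, was at 325 and 348 CPM against 399 and 393 CPM and missed the threshold (0.24, adjusted p = 0.241). FCER1A, a chain of the high-affinity IgE receptor, overlapped, at 106 and 99.9 CPM against 92.3 and 101 CPM (-0.09, adjusted p = 0.721).

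HPGDS also belongs to the list of prostaglandin and leukotriene synthesis. In it 2 of 11 genes tested rose (18.2%, against 0.624% of all genes) and none fell, with a median of 0.165. The other one was ALOX5AP, which presents arachidonic acid to 5-lipoxygenase. It was at 25.6 and 19.5 CPM in EV and 34.3 and 41.4 CPM in dnCEBP (0.74, SE 0.14, adjusted p = 0.00308), a call lost without dnCEBP replicate 2 and without EV replicate 2. The cyclooxygenase PTGS2 was at 10.7 and 12.5 CPM against 15.2 and 14.7 CPM and was not called (0.36, adjusted p = 0.359).

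Genes named for T and NK cells were present in part. Of 22 listed, 11 were tested and 1 was called higher (9.09%, against 0.624% of all genes). Of the 11, 8 had values above 0, with a median of 0.30. GZMA, the cytotoxic protease granzyme A, rose from 17.8 and 17.0 CPM to 38.1 and 38.1 CPM. The groups were well apart, with a log2 fold change of 1.13 (SE 0.13, adjusted p = 4.63e-06) that held without any 1 library. CD3D, a chain of the T cell receptor complex, was at 122 and 115 CPM against 144 and 148 CPM (0.30, adjusted p = 0.0962), and the NK receptor gene KLRB1 at 8.52 and 8.01 CPM against 11.6 and 14.4 CPM (0.65, adjusted p = 0.0617). The summed level of the 22 genes was 231 and 222 CPM of total counts in EV and 278 and 271 CPM in dnCEBP. Other members were expressed without a call. PRF1, perforin, was at 32.1 and 28.2 CPM in EV and 35.1 and 29.3 CPM in dnCEBP (0.09, adjusted p = 0.824), and TRBC2, a constant region of the T cell receptor beta chain, at 20.1 and 20.1 CPM against 23.2 and 22.3 CPM (0.18, adjusted p = 0.615). NKG7, a cytotoxic granule protein, lay the other way, at 29.7 and 29.4 CPM against 23.8 and 24.9 CPM (-0.28, adjusted p = 0.340). The markers CD3E, CD8A and GZMB had at most 4 counts in any of the 4 libraries. The part of T or NK cells in the result was not tested. CD226, an activating receptor of T and NK cells that was no member of the list, rose from 12.0 and 11.6 CPM to 23.6 and 23.7 CPM (1.01, SE 0.14, adjusted p = 0.000152) and held without any 1 library.

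Of 24 megakaryocyte and erythroid genes listed, 13 were tested and none was called, with 10 above 0 and a median of 0.405 (0.221 to 0.324 over the fits without 1 library). Their summed level was 287 CPM of total counts in both EV libraries and 348 and 306 CPM in dnCEBP. Most of this sum came from ITGA2B and GYPC. On the TMM scale ITGA2B was at 192 and 182 CPM in EV and 235 and 197 CPM in dnCEBP (0.21, adjusted p = 0.338, edgeR). GYPC was at 74.3 and 79.6 CPM against 87.6 and 89.6 CPM (0.20, adjusted p = 0.359). KLF1, EPOR and TFR2 were the 3 members below 0.

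CD36, a scavenger receptor for fatty acids, rose from 3.19 and 3.85 CPM to 9.40 and 8.16 CPM (1.32, SE 0.23, adjusted p = 0.00162). THBS1, thrombospondin 1, a ligand of CD36, rose from 1.76 and 2.11 CPM to 5.07 and 6.08 CPM (1.52, SE 0.27, adjusted p = 0.00213). Neither gene overlapped between groups. CD36 was the 1 call among 17 monocyte and phagocyte surface genes tested (5.88%, against 0.624% of all genes), whose median was -0.18. It was also the 1 call among 18 genes of lipid uptake and storage tested (5.56%), whose median was -0.06. The call of CD36 held without any 1 library and that of THBS1 was lost without dnCEBP replicate 2. ANGPT1, the angiopoietin that signals to TIE2, rose from 199 and 200 CPM to 282 and 314 CPM (0.58, SE 0.09, adjusted p = 0.000243). CD52, a short surface glycoprotein, rose from 158 and 150 CPM to 202 and 219 CPM (0.45, SE 0.08, adjusted p = 0.00396). The aminopeptidase ANPEP, the myeloid antigen CD13, fell from 187 and 176 CPM to 148 and 131 CPM (-0.37, SE 0.09, adjusted p = 0.0254). Over the fits without 1 library, CD52 ranged from 0.39 to 0.51 and ANPEP from -0.47 to -0.29. They were the only calls among 23 blast surface antigens tested (8.7%, against 1.07% of all genes). Of these 23, 13 lay above 0 and 10 below, with a median of 0.059.

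The largest fitted rise among named genes was that of CSMD3, a large transmembrane gene, with 3 and 8 counts in EV and 71 and 50 in dnCEBP. Its log2 fold change of 3.35 (SE 0.55, adjusted p = 0.000778) rests on these few EV counts. The non-coding genes AC011139.1 (1.81, adjusted p = 0.000112), KIAA0087 (1.57, adjusted p = 0.000866) and PCAT18 (1.32, adjusted p = 0.00831) also rose past 2-fold. STXBP5-AS1 rose by 1.56 (adjusted p = 0.0151) and STXBP5, which lies on the other strand and overlaps it at the 5′ ends alone, by 0.58 (adjusted p = 0.000163). Whether strand was used in counting is not given in the sources used here, so reads from that short shared stretch cannot be told apart. The same limit applies to any stretch shared with a gene on the other strand. CCDC78, STAR, SNTB1 and RSAD2 are among the named genes that overlap a protein-coding gene on the other strand. MYO7A (1.45, adjusted p = 0.0236), MYO16 (1.15, adjusted p = 0.00559), DNM3 (1.05, adjusted p = 0.0310) and ZNF185 (1.01, adjusted p = 0.000413) also rose past 2-fold, as did HSPA6.

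Several other abundant genes, all but S100A4 outside the lists, rose by less. PDZD8, a lipid transfer protein of the endoplasmic reticulum, rose from 253 and 251 CPM to 361 and 387 CPM (0.57, SE 0.08, adjusted p = 0.000163). SAMSN1, an adaptor that restrains lymphocyte signaling, rose from 51.3 and 44.0 CPM to 71.2 and 79.8 CPM (0.66, SE 0.10, adjusted p = 0.000377). S100A4, a calcium-binding protein linked to motility, rose from 282 and 289 CPM to 343 and 390 CPM (0.36, SE 0.09, adjusted p = 0.0255). It was the 1 call among 12 S100 and annexin genes tested (8.33%, against 0.624% of all genes), with a median of 0.087. No groups overlapped, and the calls of PDZD8 and SAMSN1, like those of STXBP5, ANGPT1, ZNF185, CSMD3, AC011139.1 and the antisense gene AL157895.1 (0.69, adjusted p = 0.000163), held without any 1 library. On the lower side, SNTB1, a syntrophin of the dystrophin complex, fell from 32.6 and 31.6 CPM to 20.9 and 21.2 CPM (-0.61, SE 0.12, adjusted p = 0.00532). The mitochondrial gene MT-ND1 (-0.53, adjusted p = 0.00308), the chemokine gene CCL3L1 (-0.50, adjusted p = 0.0254) and the small nucleolar RNA RF00494 (-0.76, adjusted p = 0.00678) also fell. These 3 share reads or sequence with near-identical copies or host transcripts, so their counts are uncertain. CCL3L1 was the 1 call among 10 chemokine genes tested (10.0%, against 0.448% of all genes), with a median of -0.003.

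Heat shock proteins held the largest share of calls of any list used here. Of 16 tested, 5 rose and 1 fell (37.5%, against 1.07% of all genes), with a median of 0.12. HSPH1, a co-chaperone of HSP70, rose from 116 and 118 CPM to 160 and 177 CPM (0.52, SE 0.08, adjusted p = 0.000686), and DNAJB1, an HSP40, from 76.8 and 77.2 CPM to 108 and 110 CPM (0.50, SE 0.09, adjusted p = 0.00155). Both calls held without any 1 library. HSPA6, a stress-inducible HSP70, rose from 5.50 and 4.21 CPM to 9.03 and 10.7 CPM (1.01, SE 0.22, adjusted p = 0.0144), a call lost without dnCEBP replicate 2 and without EV replicate 2. The near-identical HSPA1A (0.49, adjusted p = 0.0224) and HSPA1B (0.56, adjusted p = 0.0224) also rose, but their shared reads make the split between them uncertain. HSPA5, the chaperone BiP of the endoplasmic reticulum, was the member that fell, from 155 and 172 CPM to 131 and 104 CPM (-0.48, SE 0.09, adjusted p = 0.00678).

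Genes of the integrated stress response, which senses amino acid shortage and unfolded protein through ATF4, lay below 0 in 24 of 27 tested. The median was -0.22, 3 fell (11.1%, against 0.448% of all genes) and none rose. This median was -0.20 to -0.16 over the fits without 1 library, and -0.14 with the GC and length trend removed. In 17 both dnCEBP libraries were below both EV libraries, against 20.9% of all genes. TRIB3, a pseudokinase induced by ATF4, fell from 45.6 and 48.5 CPM to 26.1 and 24.1 CPM (-0.90, SE 0.12, adjusted p = 4.75e-05) and held without any 1 library. AARS, the alanyl-tRNA synthetase (-0.44, adjusted p = 0.00678), and PHGDH, the entry enzyme of serine synthesis (-0.37, adjusted p = 0.0329), were the other two that fell. GPT2, the mitochondrial alanine aminotransferase, fell from 73.1 and 69.1 CPM to 52.8 and 48.2 CPM (-0.49, SE 0.09, adjusted p = 0.00446), although it was in no list. Nucleolar and ribosome biogenesis genes gave 3 falls among 27 tested (11.1%, against 0.448% of all genes), with a median of -0.06. These were NCL, nucleolin, at 726 and 710 CPM against 588 and 525 CPM (-0.37, adjusted p = 0.0238), FBL, fibrillarin (-0.42, adjusted p = 0.0153), and GAR1, of the box H/ACA particle (-0.65, adjusted p = 0.0305). The calls of NCL, FBL and GAR1 were each lost without dnCEBP replicate 2 and without EV replicate 2.

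Interferon-stimulated genes lay above 0 in 33 of 43 tested, with a median of 0.16, and 2 rose (4.65%, against 0.624% of all genes). RSAD2, viperin, rose from 12.8 and 13.3 CPM to 23.9 and 26.8 CPM (0.95, SE 0.14, adjusted p = 0.000163) and held without any 1 library. SAMD9, a growth-restricting antiviral factor, rose from 73.4 and 74.2 CPM to 94.2 and 105 CPM (0.43, SE 0.09, adjusted p = 0.00678), a call lost in 3 of those fits. In 19 of the 43 both dnCEBP libraries were above both EV libraries, against 21.9% of all genes.

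Of 22 NF-kappaB targets and cytokines tested, 2 rose (9.09%, against 0.624% of all genes) and none fell. SOD2, the mitochondrial superoxide dismutase, rose from 77.2 and 74.2 CPM to 111 and 116 CPM (0.58, SE 0.08, adjusted p = 0.000163) and held without any 1 library. TNF was at 6.75 and 3.98 CPM against 10.1 and 9.80 CPM (0.89, SE 0.21, adjusted p = 0.0306), a call lost in 3 of those fits. BCL2L1, the survival protein BCL-XL, rose from 24.8 and 23.2 CPM to 38.4 and 30.2 CPM (0.52, SE 0.13, adjusted p = 0.0306). It was the 1 call among 14 BCL2 family genes tested (7.14%, against 0.624% of all genes), with a median of 0.107. CIITA, the master regulator of MHC class II, fell from 30.7 and 35.9 CPM to 25.1 and 22.6 CPM (-0.48, SE 0.12, adjusted p = 0.0404). It was the 1 call among 14 MHC class II genes tested (7.14%, against 0.448% of all genes). Of these 14, 7 lay above 0 and 7 below, with a median of 0.023. Over the fits without 1 library, BCL2L1 ranged from 0.33 to 0.68 and CIITA from -0.59 to -0.37. None of 43 S phase, 49 G2/M and 23 p53 target genes was called, and their medians were 0.005, 0.020 and 0.015.

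**Figure D4:**
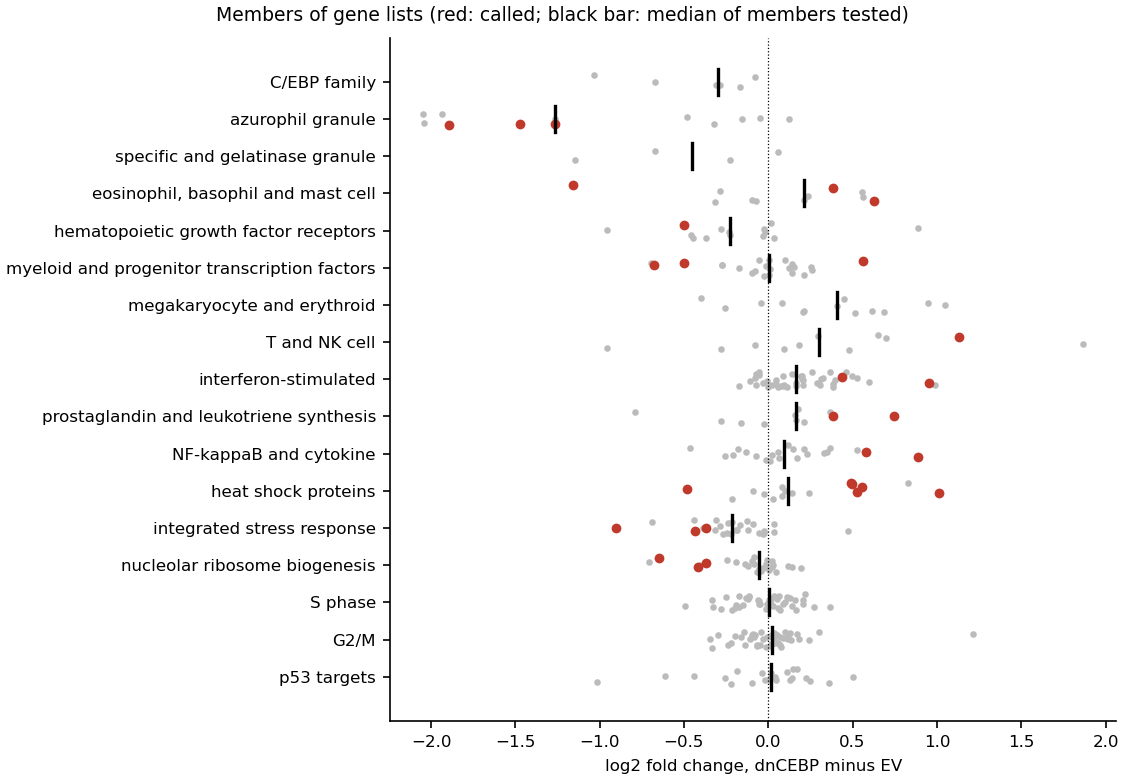
Each point is a tested member of the list on the y axis, with its log2 fold change, dnCEBP minus EV, on the x axis. Red points were called, grey points were not, and the black bar is the median of the members tested. The azurophil granule median lies at -1.26, the integrated stress response at -0.22 and the S phase and G2/M lists at 0.005 and 0.020.

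The study's own C/EBP module, the genes that its network linked to C/EBP in patients with this mutation, was then examined. The list was built from other samples and from chromatin data. Of 330 genes, 302 were tested, and 5 rose and 5 fell (3.31% called, against 1.07% of all genes). The median log2 fold change was -0.01, with 143 above 0 and 159 below. Of 252 tested members that the study listed with a C/EBPα ChIP peak, 4 rose and 5 fell (3.57%), and of 50 without a peak 1 rose (2.0%). The members that fell were MPO, PRAM1, SKI, a repressor of TGF-beta signaling (-0.73, adjusted p = 0.0254), CXCR4, the bone marrow homing receptor, and FNDC3B (-0.38, adjusted p = 0.0464). CXCR4 was at 43.8 and 37.8 CPM in EV and 28.1 and 26.7 CPM in dnCEBP (-0.57, SE 0.12, adjusted p = 0.00926). The members that rose were ZNF175 (0.53, adjusted p = 0.00261), B3GNT2 (0.42, adjusted p = 0.0257), PELI2 (0.41, adjusted p = 0.0126), IQGAP2 (0.38, adjusted p = 0.0196) and, without a peak, DLC1 (0.36, adjusted p = 0.0272). Apart from MPO, each of these calls was lost in at least 1 of the fits without 1 library.

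The dnFOS libraries show where the response differed between the peptides. Both peptides were compared with the same EV libraries, so each value is given from its own contrast and the difference from the direct contrast of dnCEBP with dnFOS, in which 2259 of 15395 genes (14.7%) were called. Of the 165 genes, 113 were called in it. The 165 were chosen by their distance from EV in the same dnCEBP libraries, so that choice favored a raised share. The 113 are therefore no independent evidence of a difference between the peptides.

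Some genes that rose in dnCEBP were below EV in dnFOS. GZMA was at 8.92 and 7.35 CPM in dnFOS (dnFOS minus EV -1.08, dnCEBP minus dnFOS 2.21, adjusted p = 4.87e-12). CPA3 was at 40.0 and 36.9 CPM (dnFOS minus EV -1.0, dnCEBP minus dnFOS 1.62, adjusted p = 1.1e-12), and CD36 at 1.11 and 0.580 CPM (-1.98 and 3.30, adjusted p = 6.71e-09). ALOX5AP, at 12.8 and 11.2 CPM (-0.90 and 1.64, adjusted p = 4.89e-09), and CD52, at 93.8 and 88.1 CPM (-0.76 and 1.21, adjusted p = 2.62e-11), followed the same order, with dnFOS lowest, EV between and dnCEBP highest. So did DNAJB1, at 60.9 and 57.5 CPM (-0.38 and 0.87, adjusted p = 2.45e-08).

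Other genes fell with both peptides. CLC fell further in dnFOS, to 0.651 and 0.967 CPM (dnFOS minus EV -3.74, dnCEBP minus dnFOS 2.58, adjusted p = 9.56e-07). TRIB3 was at 19.5 and 22.6 CPM in dnFOS (-1.17 and 0.27, adjusted p = 0.166), ENPP2 at 9.05 and 6.57 CPM (-1.12 and -0.08, adjusted p = 0.836) and CTSG at 1.95 and 2.32 CPM (-1.07 and -0.19, adjusted p = 0.775). For these 3 genes no difference between the peptides was detected, which does not show that the peptides acted alike.

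Another set fell in dnCEBP and was not called in dnFOS against EV. CA2 was at 67.1 and 64.0 CPM in dnFOS (0.21 and -1.22, adjusted p = 8.8e-10), CSF3R at 113 and 97.7 CPM (0.26 and -0.76, adjusted p = 1.05e-06), MYC at 216 and 202 CPM (-0.10 and -0.58, adjusted p = 2.75e-05) and CAT at 400 and 401 CPM (-0.12 and -0.48, adjusted p = 0.000166). MMP2, at 6.77 and 5.03 CPM, differed by -1.22 (adjusted p = 0.0013). In each of these 5 genes the difference between the peptides was called, and both dnCEBP libraries lay below both dnFOS libraries.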

How the data were processed

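The 6 KO52 libraries were prepared from total RNA after removal of ribosomal RNA. The authors deposited raw counts per gene, 1 table per library with 60612 gene IDs, as whole numbers without normalization. The submitters' processing notes name Trimmomatic, HISAT2, featureCounts, Subread and the build hg38, without versions or roles. Strand, the treatment of reads matching several genes and the annotation release are not given in the sources used here. IDs were matched to GENCODE release 29 (58394 matched), which gave symbols, 1-based coordinates, exon length and GC content.

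Counts were analysed in R 4.3.3 with edgeR 4.0.16. The filter filterByExpr (minimum count 10) kept 15395 of 27870 genes with a count. Libraries were scaled by TMM (factors 0.956 to 1.05), and edgeR's robust quasi-likelihood fit used 1 mean for each group over the 6 libraries. This left 3 residual degrees of freedom, and the common coefficient of biological variation was 0.0961. The parts of the study's methods read here give no test for these libraries, and the detailed supplementary methods were not used here. Limma-voom, which the study names for another RNA-seq comparison, was an alternative. Depth of 9862994 to 27663179 counts gives a floor of 3 counts at 0.108 to 0.304 CPM. Fitted fold changes against groups at or under that floor depend on the prior count. Scripts were tested on simulated data.

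Named genes were the C/EBP family, each called gene past 2-fold that had a symbol, averaged at least 1 CPM and did not overlap between groups, the 10 other such called genes of smallest adjusted p in each direction, and each called member of a list or of the C/EBP module. In the lists described at length, other members are given with their values. Other genes are said to be chosen after their values were seen. Promoters were RefSeq sequences, and of several per gene the start nearest the GENCODE gene start was taken. The gene lists, the named genes and the comparison were chosen with earlier results of these data known, and no set test was run. Some genes that the rule or the lists took up are not reported here.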

Additional observations from a re-analysis of the deposited data

How the results depend on the processing

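Of 165 genes called (96 higher and 69 lower), the count moved past 1.5-fold in 5 settings, and also in each fit without 1 library. Without the low-count filter it was 255 (115 lower), with the 4 compared libraries alone 257 (119 lower), and with the GC and length trend removed 262 (155 higher and 107 lower). With all genes weighted alike, same-numbered libraries of different groups deviated little together (r of 0.017 to 0.088 across genes). Whether they shared a culture or batch is not given in the labels and was not tested. A fit with a replicate block gave 488 (232 higher, 256 lower, 20 lower past 2-fold), and the block with the trend removed gave 309 (178 higher and 131 lower), in which 165 and 151 of the 165 were called. Past 2-fold, 17 higher genes became 11 under library totals, and 12 lower genes became 7 in DESeq2. Leaving out 1 library gave 33 to 257 calls, 24 to 89 higher, 9 to 168 lower, 6 to 17 higher past 2-fold and 4 to 25 lower past 2-fold. These fits leave a group with 1 library, which is assumed to vary like the others. Limma-voom (201), median-of-ratios size factors (172), a minimum mean of 1 CPM (166) and leaving out features above 1% of counts (165) stayed within 1.5-fold. The causes were not tested.

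Of named genes, the log2 fold change of CEBPA (-0.08, not called) alone changed sign, to 0.15 (0.148) with the trend removed, 0.146 with the trend and the replicate block and 0.008 without dnCEBP replicate 2 (-0.168 to 0.008 over the fits without 1 library). CEBPG, not called as reported, was called with the trend removed (-0.34, adjusted p = 0.0446, edgeR) and with the block added (-0.34, adjusted p = 0.0327). Of 73 named genes that were called, 58 kept their call in every setting other than leaving out a library. The full dyad in place of TTGCNNAA moved the promoter share from 18.4% to 0% for genes called lower and from 7.14% to 0% for genes called higher.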

Other observations

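Other called genes stood outside the naming rule and were chosen after their values were seen. No theme was tested over them. UBASH3A, a negative regulator of T cell receptor signaling, was at 9.48 and 9.11 CPM in EV and 15.5 and 15.4 CPM in dnCEBP (log2 fold change 0.73, SE 0.16, adjusted p = 0.0164, edgeR). TRDC, the constant region of the T cell receptor delta chain, was at 22 and 19.3 CPM against 30.0 and 29.3 CPM (0.52, adjusted p = 0.0359). IL1RL1, the interleukin 33 receptor of mast cells, was at 64.4 and 57.2 CPM against 79.6 and 81.6 CPM (0.41, adjusted p = 0.0224), and IL9R, the interleukin 9 receptor, at 39.3 and 31.0 CPM against 55.0 and 46.7 CPM (0.53, adjusted p = 0.0196). The groups did not overlap in any of these 4 genes. In dnFOS TRDC was at 7.75 and 7.73 CPM and IL1RL1 at 32.2 and 32.9 CPM, both below EV.

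Among genes that fell, CALR, the lectin chaperone calreticulin, was the most abundant called gene, at 2128 and 2076 CPM in EV and 1578 and 1665 CPM in dnCEBP (-0.37, SE 0.08, adjusted p = 0.0153). The vesicle GTPase paralogs RAB27A and RAB27B moved apart. RAB27A fell from 7.51 and 8.74 CPM to 4.92 and 3.67 CPM (-0.91, SE 0.21, adjusted p = 0.0216), and RAB27B rose from 114 and 110 CPM to 148 and 164 CPM (0.47, SE 0.09, adjusted p = 0.00308). FAT1, a large cadherin, was counted 21 and 15 times in EV against 2 and 0 times in dnCEBP, a level at which the size of the fall is poorly known.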
